A study of Neodesmus pupukensis with 4 samples.

Results

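The transcriptome of a green microalga was compared between 57 h and 45 h of culture. Among the steps between successive harvests, this step of 12 h had the widest spread of transcript ratios. The cells were strain UTEX2341, placed in Neodesmus pupukensis by the sample labels and named Chlorella minutissima in the design text. They were grown fed-batch in shaken flasks at 25 °C, spun down and frozen, and total RNA was sequenced from 1 harvest per time, at 14, 45, 57 and 88 h. All 4 groups share strain, medium volume and handling, and differ by culture time. The labels give no growth stage, nutrient level or cell density, and their entry on lipid is the same for every harvest. Of the 14905 assembled transcript sequences, 13963 averaged 10 or more reads over the 45 h and 57 h libraries and were compared. Summed by component, which is the set of sequences that share an identifier up to its seq number, 5597 of 6216 components passed the same floor.

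In a flask culture of green algae, cells first divide quickly and then slow as light per cell and dissolved nutrients, often nitrogen, become limiting. In many such algae this slowing goes with lower transcript levels for ribosome synthesis and photosynthesis, higher levels for nutrient uptake and recycling, and storage of carbon as starch and triacylglycerol. The series was made to follow enzymes of lipid synthesis during growth. The deposited files pair no identifier with a gene name, so neither those enzymes nor any pathway could be scored, and the results below describe how the pool of transcripts was redistributed.

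The files state library totals of 11874560 reads for 45 h and 12130407 for 57 h, with 12495251 and 12077745 for the first and last harvests. Counts summed over sequences were 1.27 to 1.36 times these totals, so a component made of several sequences may hold some reads more than 1 time. Between 5969 and 6006 components had a read in each library. With 1 library per time no difference has a replicate check and no test was possible. Each difference below is between 2 single libraries and is described by size alone. Intervals reflect counting error and nothing else.

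Many more components were lower than higher at 57 h. The ratio was taken as reads plus 0.5 over the stated library total, which above low counts equals a ratio of RPKM (reads per kilobase, scaled to the depth of the library). Of the 5597 components, 630 were at least 2-fold higher at 57 h, or 11.3%, and 2621 were at least 2-fold lower, or 46.8%. At 4-fold the numbers were 181 higher (3.23%) and 1264 lower (22.6%), and at 8-fold 45 higher (0.804%) and 495 lower (8.84%). A 16-fold difference was reached by 11 higher components (0.197%) and 163 lower ones (2.91%). Among single sequences the same rule gave 1652 higher (11.8%) and 5815 lower (41.6%), so counting components in place of sequences did not remove the excess of lower values. Within 0.1 log2 units of the 2-fold limit lay 80 components just inside and 84 just outside on the higher side, and 135 and 147 on the lower side.

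The excess of lower components is a statement about shares of a library. The median component had a log2 ratio of -0.87, that is 0.546 times its 45 h value, and reads per library total cannot tell a lower transcript amount from a larger amount of other transcripts. Relative to that median, 1418 components were higher by 2-fold or more (25.3%) and 1412 lower (25.2%). At 8-fold the centred counts were 158 higher (2.82%) and 193 lower (3.45%). Higher components made up 19.4% of those 2-fold apart on the deposited scale, 50.1% after centring and 47.1% with TMM scaling, a trimmed mean of ratios that places the typical component near no change. The size of the excess therefore depends on the scale. Centring and TMM place the typical component at or near no change by construction, so a nearly even split was largely set in advance. The number 2-fold apart depends little on the scale, at 3251, 2830 and 2814.

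**Figure D1:**
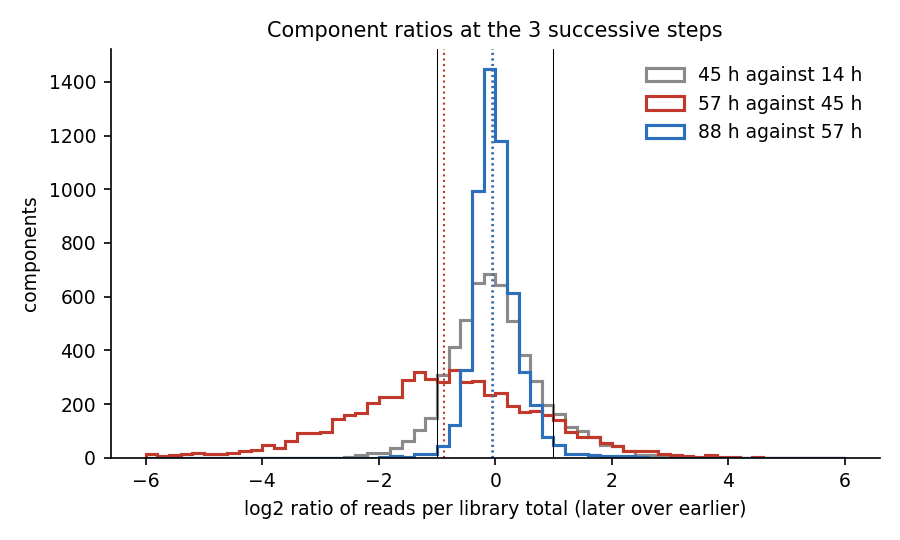
Histograms of the log2 ratio of component reads per library total for the 3 successive steps, in bins of equal width, with dotted lines at the medians, solid lines at 2-fold, and values beyond 6 log2 units placed at the edge. The ratios of 57 h to 45 h (red) spread from a 5th percentile of -3.49 to a 95th of 1.70 around a median of -0.87, while the same percentiles of 88 h to 57 h (blue) are -0.54 and 0.69.

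The width of the distribution is what sets this step apart from its neighbours, as far as single libraries can show. Around its median, the middle 90% of components ran from -2.62 to 2.57 log2 units at 57 h against 45 h. The corresponding limits were -1.11 and 1.55 at 45 h against 14 h, harvests 31 h apart, and -0.50 and 0.73 at 88 h against 57 h, also 31 h apart. Without centring, components 2-fold apart in either direction were 58.1% of those compared at this step, 18.2% at the step before and 2.85% at the step after. These shares take in the centre as well as the width. The neighbouring steps share the 45 h or the 57 h library with this one, so a departure of either library would enter 2 steps. The difference between steps has no test.

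Measured as read share, 38.8% of the reads counted on sequences moved between components from 45 h to 57 h. The same quantity, the sum of all gains in percentage points, was 19.5% from 14 h to 45 h and 8.73% from 57 h to 88 h. Gains rested on fewer components than losses, and fewer components gained than lost. Of 1858 components that gained share, 61 carried 50% of the gain, and of 4183 that lost share, 214 carried 50% of the loss. The corresponding numbers were 59 and 155 at the step before and 26 and 38 at the step after. The contrast was thus not limited to the step from 45 h to 57 h. The 100 largest gains made up 61.4% of all gain and the 100 largest losses 37.3% of all loss.

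The components 2-fold higher and 2-fold lower at 57 h nearly exchanged their places in the pool. The 630 higher components held 12.8% of counted reads at 45 h and 40.4% at 57 h. The 2621 lower components held 45.4% at 45 h and 11.7% at 57 h. Both shares follow from how the components were picked in these libraries. The 14 h and 88 h libraries were not used to pick them, but they were close to those that were. Component reads correlated at a Spearman rho of 0.965 for 14 h and 45 h and 0.993 for 57 h and 88 h. Shares at 14 h and 88 h are thus no separate check. At these times the higher components held 14.2% and 39.2%, and the lower ones 42.3% and 11.7%. The 2346 components within 2-fold held between 41.8% and 49.1% in all 4 libraries.

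**Figure D2:**
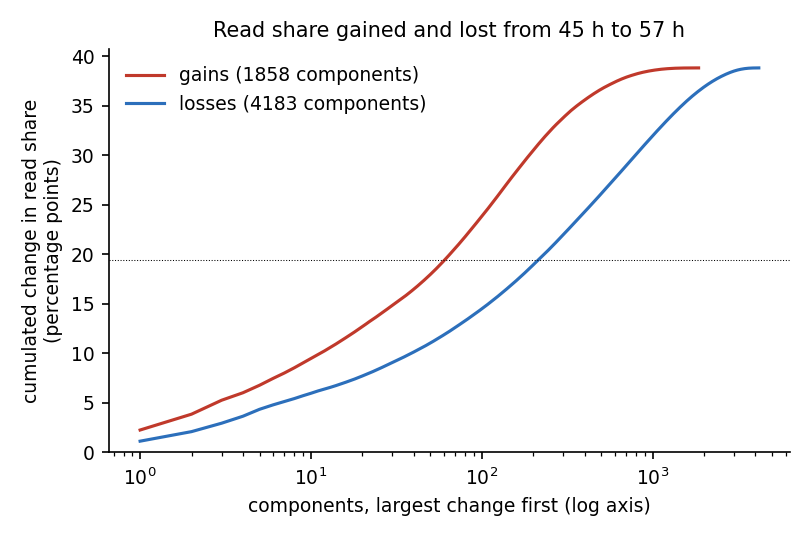
Change in read share from 45 h to 57 h, in percentage points, cumulated over components from the largest change down, on a log axis, for components that gained (red) and lost (blue). The gain curve reaches 50% of the 38.8 points (dotted line) at 61 components and the loss curve at 214.

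As the pool was redistributed it became more uneven. At 14 h and 45 h, 366 and 358 components were enough to hold 50% of all counted reads. In the later libraries 158 (57 h) and 149 (88 h) were enough. The 10 components with most reads took 10.2% at 45 h and 15.5% at 57 h. The median component had 694.5 reads at 45 h and 323.5 at 57 h.

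The 10 largest gains together held 5.18% of counted reads at 45 h and 14.7% at 57 h, with log2 ratios from 0.63 to 3.29. They held 3.05% at 14 h and 15.9% at 88 h. The 10 largest losses held 6.67% at 45 h and 0.693% at 57 h, with log2 ratios from -5.47 to -1.82. At 14 h they held 3.85% and at 88 h 0.75%. Picking by the loss from 45 h favours components that were high in that library.

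By the fixed rule for files without gene names, the 2 largest gains and the 2 largest losses of read share are given by identifier. They were chosen for these values, which are a description. Levels are RPKM values computed from a component's summed reads and its longest sequence, so that components of different length can be ranked.

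The largest gain of summed reads was that of comp198_c0, a component of 26 sequences with a longest of 6106 bases. In order of culture time it had 47421, 118589, 470146 and 332943 reads, which is 0.282%, 0.732%, 3.0% and 2.17% of counted reads. Its level was 3.88-fold higher at 57 h than at 45 h, a log2 ratio of 1.96 (95% interval 1.95 to 1.97), and its rank went from 49 to 9. The 57 h library was thus its highest and the 14 h library its lowest. Its sequences did not all share this course. Of the 26, all over the floor, 21 were higher and 2 lower by 2-fold or more, with log2 ratios from -2.06 to 2.16. The single sequence with the most reads had 32438 reads at 45 h and 141074 at 57 h, and reads counted on several of these sequences would inflate the sum. Counting only the sequence with the most reads in each component, its gain was 0.699 percentage points and the fourth largest.

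The next gain, and the first with 1 sequence per component, was that of comp192_c0, a single sequence of 7253 bases. Its 4 libraries held 198184, 410291, 648806 and 1022442 reads in order of time, so each later library was higher. Its share of counted reads went from 2.53% to 4.14% over this step. With a log2 ratio of only 0.63 (0.62 to 0.64) it stayed within 2-fold, and its rank by level was 4 at 45 h and 5 at 57 h. Its gain in share was large at a modest ratio, from a high starting level. With TMM scaling its log2 ratio was 1.43, past 2-fold.

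The largest loss of summed reads was that of comp17_c0, 2 sequences with a longest of 2099 bases. Over the 4 times its reads were 63558, 188697, 4359 and 7267. Its level was 44.2-fold lower at 57 h than at 45 h, a log2 ratio of -5.47 (-5.51 to -5.42), and it went from rank 3 to rank 493. Both of its sequences were lower, with log2 ratios of -5.55 and -5.35. With 1 sequence per component its loss was the third largest.

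The second loss, and the first with 1 sequence per component, was that of comp36_c0, a single sequence of 1250 bases that had the highest level of all components at 45 h. Over the 4 times its reads were 35374, 162351, 6065 and 7733. Its level was 27.3-fold lower at 57 h, a log2 ratio of -4.77 (-4.81 to -4.74), and its rank went from 1 to 246. Both lost components were highest in the 45 h library, and both were lower in the later libraries than at 14 h.

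**Figure D3:**
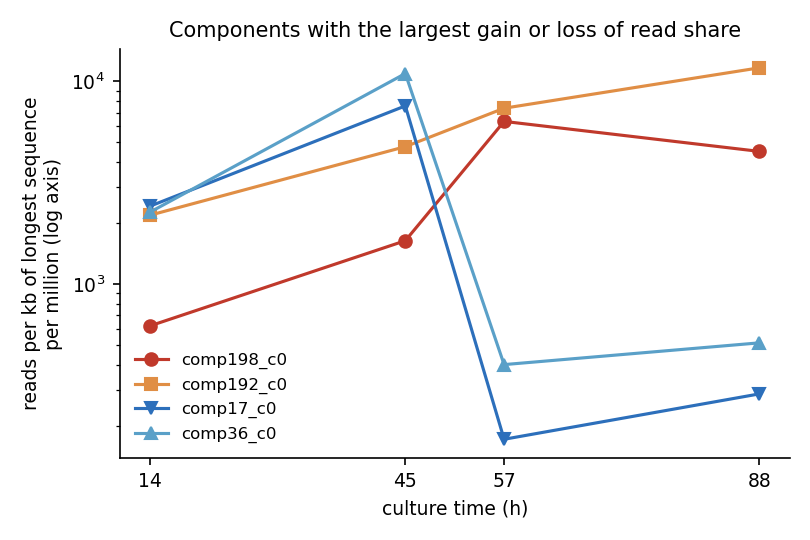
Level of the 4 components with the largest gain or loss of read share, as RPKM of the summed reads over the longest sequence, on a log axis, at each culture time, 1 library per point. The blue lines (comp17_c0 and comp36_c0) peak at 45 h, at 7571 and 10938, and lie at 171 and 400.0 at 57 h, while comp198_c0 goes from 1636 to 6347.

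The abundant end of the transcriptome was reordered. Ranked by level, the 100 highest components of 45 h and the 100 highest of 57 h shared 64, so 36 left the list and 36 entered it. The corresponding lists shared 77 at the step before, from 14 h, and 95 at the step after, to 88 h. Of the first 10, 20 and 50 components, 4, 9 and 33 were shared between 45 h and 57 h, and of the first 500 and 1000, 303 and 640. At the step before, 2, 5, 34, 394 and 803 were shared. The first 10 and 20 thus overlapped less there than here, the first 50 about equally, and lists of 100 or more overlapped more there. Single sequences ranked by RPKM gave 64 shared of 100 at this step too, with 76 before and 95 after it.

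Leaving and entering the list took different forms. The 36 components that left had a median rank of 65.5 at 45 h and 264 at 57 h, and the lowest-ranked of them was at 2194. Of the 100 highest at 45 h, 12 were beyond rank 500 at 57 h and 8 beyond rank 1000. The 36 that entered came from a median rank of 168, 1 of them from beyond rank 500 (rank 960) and 0 from beyond rank 1000. From 14 h to 45 h the contrast ran the other way, since those that left reached at most rank 181 and 3 of those that entered came from beyond rank 500, the farthest from rank 764. The 2 contrasts share the 45 h library and are not separate. Those 3 were all among the 8 beyond rank 1000 at 57 h, at ranks 1912, 2021 and 2165.

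The level needed for the first 100 also moved, from 916 at 45 h to 1309 at 57 h. Of the 36 that left, 26 were at least 2-fold lower and 10 were within 2-fold, with a highest log2 ratio of 0.29. Of the 36 that entered, 34 were at least 2-fold higher. Of the 64 in both lists, 39 were at least 2-fold higher, 25 within 2-fold and 0 at least 2-fold lower, with a median log2 ratio of 1.05. These 64 held 13.0% of counted reads at 45 h and 28.5% at 57 h. Over all components compared, 46.8% were at least 2-fold lower and 11.3% at least 2-fold higher. Membership in a list at 45 h and 57 h fixes part of the directions of the 3 groups.

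The 14 h and 88 h libraries did not define the lists, but each was close to a library that did. The first 100 components of 57 h and 88 h shared 95, and those of 14 h and 45 h shared 77. Where the 2 groups lay at 14 h and 88 h is thus partly set by the lists and is no separate check. Of the 36 that left, 18 were in the first 100 at 14 h and 2 at 88 h, and their median level was 1036 at 14 h and 341 at 88 h. Of the 36 that entered, 11 were in the first 100 at 14 h and 31 at 88 h, with median levels of 643 and 1663. Of the 64 in both lists, 59 were also in the first 100 at 14 h and 64 at 88 h.

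**Figure D4:**
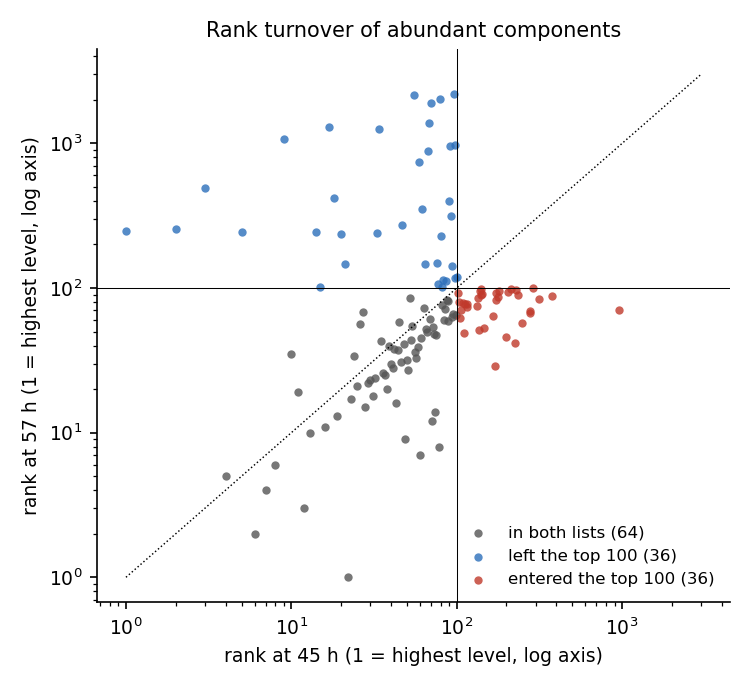
Rank by level at 45 h (x axis) and 57 h (y axis), both on log axes with 1 the highest, of components among the 100 highest at either time. Components that left (blue) reach rank 2194 at 57 h, those that entered (red) started at rank 960 or better, and the dotted line marks equal rank.

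The first 10 components of 45 h divided at 57 h into 2 sets of 5. At 57 h one set lay at ranks 244 to 1080, with log2 ratios from -5.47 to -3.41. These 5 components held 4.05% of counted reads at 45 h and 0.155% at 57 h. At 14 h they had been at ranks 32 to 145, with 1.1% of reads, and at 88 h at ranks 195 to 735, with 0.216%. The other set stayed at ranks 2 to 35 at 57 h, with log2 ratios from 0.25 to 1.36. Its share of counted reads was 3.05%, 4.44%, 7.49% and 9.23% in order of time.

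At 57 h the highest level, 22351, belonged to a single sequence of 902 bases that had been at rank 22 with a level of 2282 at 45 h, a log2 ratio of 3.29. At 14 h it was at rank 74 and at 88 h at rank 1. The first 10 of 57 h had all been within rank 78 at 45 h, and all had higher levels at 57 h than at 45 h. The first rank was thus taken by a component that was abundant before.

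The same redistribution was looked for in the pair of libraries that this comparison does not use. The ratio of 88 h to 14 h shares no library with the ratio of 57 h to 45 h. The harvests on either side of this step were alike, however. Component reads at 14 h and 45 h correlated at a Spearman rho of 0.965, and those at 57 h and 88 h at 0.993. Across the step, rho was 0.887 for 45 h and 57 h. The overlaps below also reflect the likeness on either side. Among 5536 components over the floor in both pairs, 453 were at least 2-fold higher in both, which is 73.4% of the 617 higher at 57 h and 61.7% of the 734 higher at 88 h. Over all components tested in that pair, 13.3% were higher at 88 h than at 14 h. In the lower direction 2175 were shared, 83.8% of 2597 and 81.9% of 2655, where 48.1% of all components were lower.

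The 617 components higher at 57 h had a median log2 ratio of 88 h to 14 h of 1.60, with quartiles of 0.95 and 2.41, against -0.93 for all 5536. The 2597 lower ones had a median of -1.98, with quartiles of -2.74 and -1.29. Opposite directions were rare, with 1 component higher at 57 h and lower at 88 h, and 27 lower at 57 h and higher at 88 h. After centring each pair on its own median, 1173 of the 1395 components higher at 57 h were also higher at 88 h. That is 84.1%, where 27.8% of all 5536 were higher. Of the 1397 lower ones 1014 were also lower, or 72.6%, where 25.2% of all were lower. Opposite directions were seen for 4 and 21. The lower direction overlapped more without centring, and the higher direction with it. The 2 ratios correlated across the 5536 components at a Spearman rho of 0.848 and a Pearson r of 0.831, as a description, since components are no replicates. Each component has the same sequences and lengths in both ratios. The labels do not say whether the harvests came from 1 flask.

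**Figure D5:**
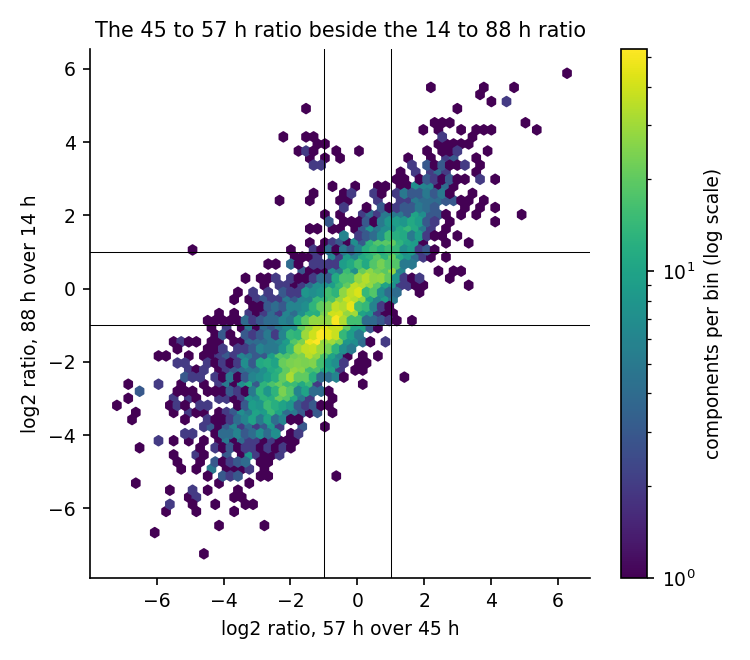
Log2 ratio of 57 h to 45 h (x axis) and of 88 h to 14 h (y axis) for 5536 components, coloured by the number of components per bin on a log scale, with lines at 2-fold. The 2 ratios use different libraries, and 453 components lie in the upper right and 2175 in the lower left corner.

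Abundance was examined with ranks from libraries that the ratio does not use. The 100 components highest at 14 h went against the majority at this step, with a median log2 ratio of 57 h to 45 h of 0.93, which is 1.80 above that of all components. Of these 100, 45 were higher and 17 lower by 2-fold or more, against 11.3% and 46.8% of all components. The difference did not extend down the list. The 400 components at ranks 101 to 500 had 56 members higher and 181 lower and a median of -0.78, and the 2000 at ranks 1001 to 3000 had 137 higher, 1000 lower and a median of -1.0. Ranked by 88 h in place of 14 h, the first 100 had 71 higher, 0 lower and a median of 1.12, and medians went down at each group to -1.63 beyond rank 3000. Component reads at 88 h correlated with those at 57 h at a Spearman rho of 0.993, so a ranking by 88 h favours components that are high at 57 h.

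Component size and length went with the ratio to a smaller degree. The 3147 components of a single sequence had a median log2 ratio of -0.92, and the 170 of 10 or more sequences one of -0.34, or 0.53 above the median of all components. Of the latter, 12.9% were 2-fold higher, near the 11.3% of all components, and 30% were 2-fold lower, against 46.8% of all. The largest component, of 212 sequences, went from 6635 to 5402 reads, a log2 ratio of -0.33.

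Components whose longest sequence was shorter than 999 bases were 2-fold higher at 57 h in 18.5% of cases, and those of at least 3028 bases in 7.07%. The shares 2-fold lower were 42.2% and 44.9%. The short group also had fewer reads, with a median of 102 against 2648. At 45 h against 14 h, short components were more often 2-fold apart in both directions, with 15.1% against 7.86% higher and 10.3% against 2.21% lower. The part of counting error in this order was not tested.

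Within components of several sequences the leading sequence often changed, but seldom by much. Of 2450 components over the floor with at least 2 sequences, 773, or 31.6%, had a different sequence with the most reads at 57 h than at 45 h. At the step before the number was 516 and at the step after 503. Only 5 of the 773 had a leader at least 2-fold ahead of the other time's leader in both libraries, and in 3 of these the leaders of 14 h and 88 h matched those of 45 h and 57 h. In 38 of 2409 components with at least 2 sequences over the floor, 1 sequence was 2-fold higher and another 2-fold lower, and comp198_c0 is among them.

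Loss or appearance of a component was rare at this depth. There were 13 components with 10 or more reads at 45 h and 0 at 57 h, the most abundant of them with 46 reads, and 11 of the 13 had 3 reads or fewer at 88 h. The opposite was seen for 3 components, with at most 24 reads at 57 h. A count of 0 allows up to 3 reads, so absence was not shown for any of them.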

How the data were processed

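Per the file headers, the authors deposited for each library the read count, the stated total reads, the length and the RPKM of 14905 assembled sequences. The deposited RPKM equalled the count scaled by length and stated total to within 3.8e-11. BWA is named without version per the submitters' processing notes. How the sequences were assembled, how reads were filtered and where a read matching several sequences was counted is not stated in the labels or headers.

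Samples were grouped by labelled culture time, 1 library each. Counts were summed by component. The log2 ratio used reads plus 0.5 over the stated total, a floor of 10 mean reads and a limit of 2-fold, also after subtracting the median ratio. Intervals are 95% exact conditional binomial (Clopper-Pearson). They treat reads as independent, which PCR copies and shared reads break. Levels divide summed reads by the longest sequence. Simulated libraries with known changes and counting error alone were used to check the computation of the ratios and intervals. They held no shared reads and no spread beyond counting error, so the check does not extend to those. The members, lists and alternatives were chosen with earlier results of these data known. The components named are the 2 largest gains and the 2 largest losses of read share. Scaling factors came from edgeR 4.0.16 in R 4.3.3, and all else from Python 3.11.15 with scipy 1.17.1, pandas 2.3.3, numpy 2.4.6 and, for plots, matplotlib 3.10.9.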

Additional observations from a re-analysis of the deposited data

How the results depend on the processing

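Of 59 alternative values for 11 results, 46 stayed within the limits set. The others were mainly scalings. With TMM library sizes 1325 components were higher and 1489 lower at 57 h, and 3272 and 3250 sequences. Median-of-ratios factors gave 1382 and 1431 components, and 3272 and 3249 sequences. Both place the typical feature near no change by construction. After centring, 1173 of 1395 components were higher and 1014 of 1397 lower in both pairs of libraries. The read share moved was 40.2% with 1 sequence per component, 38.5% with comp numbers alone and 39.3% over single sequences, beside 38.8%. All were counted as beyond the limits. They regroup or subset the same reads, so the differences are of definition and counting error does not measure them. Ranked by summed reads without length, the lists of 100 shared 44 components in place of 64, and by reads 53 sequences in place of 64. Both falls were counted as within the limits, so that count does not show the list overlap to be stable. The overlap depends on ranking by length-scaled level. With the whole counting interval beyond 2-fold, 496 components were higher and 2273 lower. Chosen after seeing the data, TMM moved comp192_c0 from a log2 ratio of 0.63 to 1.43, past 2-fold, and comp198_c0 to 2.76, while comp17_c0 was at -4.67 and comp36_c0 at -3.97. The ranking of gains and losses with 1 sequence per component was also chosen after seeing the data. No paired analysis was possible because only 1 library represents a time, and for the same reason no library could be left out.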

Other observations

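Of the 27 components lower at 57 h than at 45 h but higher at 88 h than at 14 h, 15 were at least 8-fold higher at 88 h than at 14 h. All 15 were single sequences, as were 24 of the 27 and 56.2% of all components compared. Together the 15 had 705, 4531, 1956 and 9613 reads in order of culture time. The set was thus higher at 45 h and at 88 h than at the harvest before each, and its 57 h reads lay between those of 14 h and 45 h. Its share of counted reads was 0.0042%, 0.028%, 0.0125% and 0.0625% in that order. Their log2 ratios were 2.40 to 4.04 at 45 h against 14 h, -2.19 to -1.01 at 57 h against 45 h, and 1.94 to 3.41 at 88 h against 57 h. The set was picked on the ratios of 57 h to 45 h and of 88 h to 14 h, which fix much of this course, and the other 12 of the 27 had a median log2 ratio of 57 h to 45 h of -1.38, close to the -1.37 of the 15. What these sequences are cannot be read from the files.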
